A study of Drosophila melanogaster with 10 samples.

Results

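The Janus kinase and STAT (JAK/STAT) pathway of Drosophila was followed through its ligands and core components: the secreted ligands upd1, upd2 and upd3, the receptor dome, the kinase hop, the transcription factor Stat92E and the feedback inhibitor Socs36E. A gene was measured where a probe set of the array was annotated with its symbol alone. Of the 7 genes listed, 4 were found in this way (upd1, upd2, dome and Stat92E), each with 1 probe set, out of 11982 genes on the array. Another 3 (upd3, hop and Socs36E) had no such probe set and were not analysed here. The 4 measured genes were all among the 8702 genes kept after a filter on dim signals.

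In this pathway a secreted Unpaired ligand binds the receptor Domeless at the cell surface, the receptor-bound kinase Hopscotch is activated, and phosphorylated Stat92E enters the nucleus and switches genes on. Socs36E is one of the genes switched on and in turn dampens the signal. In the growing eye disc, the larval tissue that forms the retina, upd1 is known as a long-range growth signal produced near the posterior midline, where Notch is active, and the transcription factor eyegone (eyg) is known as a link between Notch and upd1. The comparisons below address how the components of this pathway stood when Notch signalling was raised and when the mitochondrial gene COX7a was lowered.

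The samples were eye-antenna discs of early third-instar larvae at 96 h after egg laying, from eggs laid over 2 to 3 h. Each sample pooled 20 to 30 discs, and 50 ng of total RNA was amplified and hybridised to an Affymetrix Drosophila Genome 2.0 array. There were 5 genotypes with 2 arrays each, described as biological replicates, and all 5 carried the driver ey-Gal4, which is active in the eye primordium and drives any UAS transgene there. The control was ey-Gal4/UAS-GFP, here GFP. The second genotype was ey-Gal4/UAS-COX7a-RNAi (line v106661), here COX7a RNAi, which lowers a subunit of respiratory complex IV. The third was ey-Gal4, UAS-Delta/UAS-GFP, here Delta, which overproduces the Notch ligand Delta. The fourth joined ey-Gal4 and UAS-Delta with the same RNAi line, UAS-COX7a-RNAi (v106661), here Delta with COX7a RNAi. The fifth was ey-Gal4/UAS-Notch[intra2], here Notch intra2, a form of Notch named as intracellular. The antennal part of each disc lay in the sample with the eye part, and in such bulk samples fewer cells of a type and less RNA per cell cannot be told apart.

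The targeted genes followed the labels. COX7A was lower by 2.85 on the log2 scale in COX7a RNAi than in GFP (log2 change -2.85 ± 0.090, SE) and lower in Delta with COX7a RNAi than in Delta (-2.21 ± 0.090). Delta RNA was higher than in GFP by 1.96 ± 0.15 in Delta and by 1.81 ± 0.15 in Delta with COX7a RNAi. COX7A stood 0.52 ± 0.090 higher in Delta with COX7a RNAi than in COX7a RNAi alone (limma adjusted p = 0.0422). Arrays of 1 genotype correlated at 0.997 to 0.998 over all genes and arrays of different genotypes at 0.989 to 0.997. The eye field genes eya, so, toy and ey were well above the floor, a log2 value of 4.66, on all arrays. Of the antennal markers Dll, ct, dan and danr were above it on all arrays, while ss was under it on both Notch intra2 arrays (4.09 and 3.93), so that 1 marker of the antennal part of the label was not above the floor there.

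upd1, the founding ligand of the pathway, was the member that changed most between genotypes, and it was highest in Notch intra2. Its log2 level was 9.45 and 9.49 on the GFP arrays and 9.69 and 9.33 on the COX7a RNAi arrays. It was 9.98 and 9.91 on the Delta arrays and 9.89 and 9.94 on the arrays of Delta with COX7a RNAi. It was 10.29 and 10.20 on the Notch intra2 arrays. The levels fell into 3 steps without overlap: the 4 arrays without a Notch-activating transgene were lowest, the 4 arrays with UAS-Delta lay between, and both Notch intra2 arrays were above every other array.

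**Figure D1:**
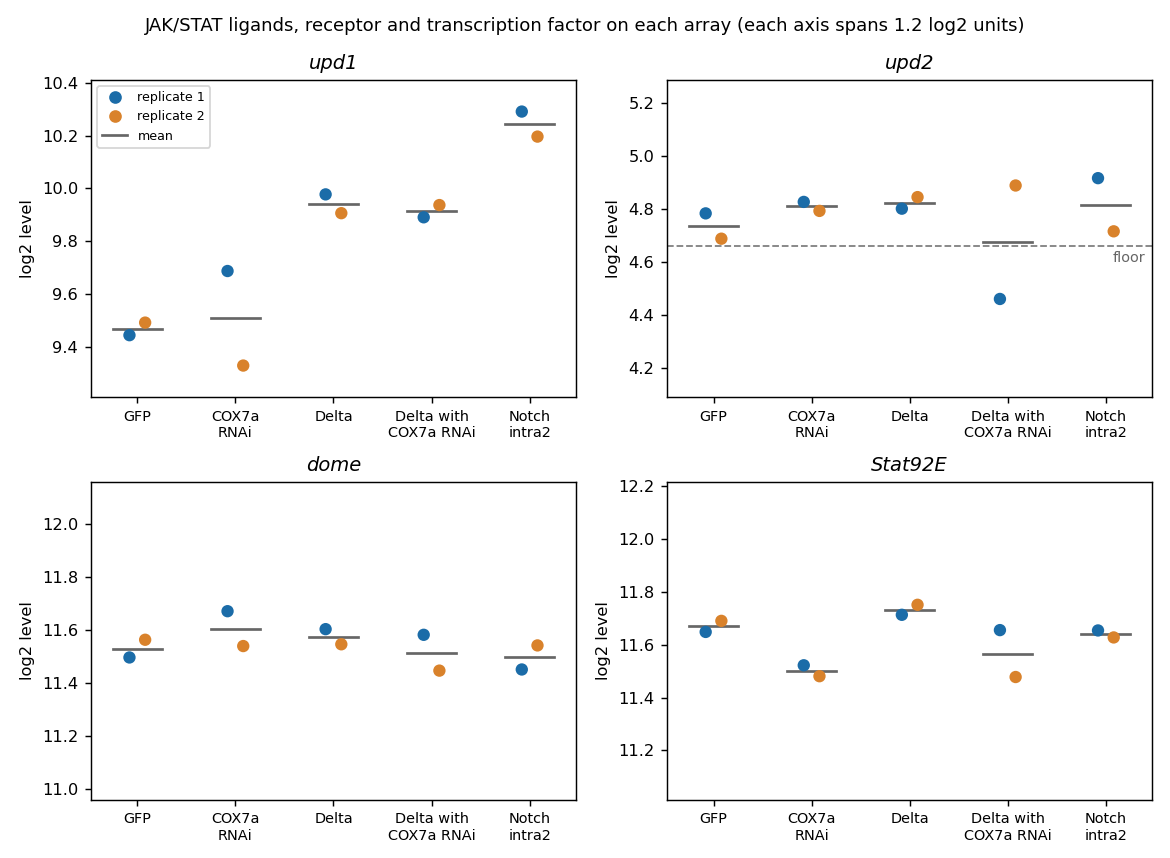
Log2 signal of upd1, upd2, dome and Stat92E (vertical axes, 1 panel per gene) on each of the 10 arrays, grouped by genotype on the horizontal axis; points are single arrays and bars are genotype means. upd1 rises from 9.47 in GFP to 10.24 in Notch intra2, upd2 lies near the floor of 4.66, and dome and Stat92E stay between 11.45 and 11.75.

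In Notch intra2, upd1 rose by 0.77 ± 0.10 (SE) on the log2 scale over GFP, which is 1.71-fold (95% interval of the log2 change 0.54 to 1.01, n = 2 arrays per genotype, limma adjusted p = 0.00167). It was 1 of 4 members called in this comparison, where 13.1% of all genes tested were called and 6.03% were called as higher. A gene was called at a limma p-value under 0.05 after Benjamini-Hochberg adjustment over all 8702 genes. The call for upd1 was kept when any of the 10 arrays was left out and under each of the 9 other settings tried, with adjusted p between 1.002e-04 and 0.0189. The other 3 members differed by -0.033 to 0.080 and were not called. The median change of the 4 members was 0.026, against 0.028 over all genes tested.

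With Delta, upd1 stood 0.47 ± 0.10 higher than in GFP, and both Delta arrays were above both GFP arrays. This difference missed the threshold (limma adjusted p = 0.0578). None of the 4 members was called, against 2.38% of all genes. Without COX7a RNAi replicate 1 the adjusted p was 0.00452 and without COX7a RNAi replicate 2 it was 0.00448. Those 2 arrays do not enter this difference but set the shared estimate of the spread, and upd1 had its widest gap between replicates there (SD 0.25, against 0.033 to 0.067 in the other genotypes). The same 2 arrays differed in genes of several groups. The antennal markers ss and Dll were 6.83 and 8.71 and 8.93 and 9.85, the furrow gene sens was 7.22 and 8.27, the Notch target E(spl)malpha-BFM was 8.89 and 10.13, and the glial marker repo was 7.49 and 8.16. In Delta with COX7a RNAi sens was 7.15 and 8.07 while upd1 was 9.89 and 9.94. The part of these differences in the level of upd1 was not tested.

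In Delta with COX7a RNAi, upd1 rose by 0.44 ± 0.10 over GFP, which is 1.36-fold (limma adjusted p = 0.0362), and it was again the 1 member called, where 7.56% of all genes were called and 4.61% as higher. The call was kept in 2 of the 10 leave-one-out fits, those without COX7a RNAi replicate 1 or 2. It was lost without GFP 1 or 2, Delta 1 or 2, Delta with COX7a RNAi 1 or 2, or Notch intra2 1 or 2, with adjusted p from 0.0597 to 0.168. It was also lost without an intensity trend in the variance (0.0608). In the same comparison 3 of 6 eye field markers were lower (Optix -0.51, so -0.34 and toy -0.20). So were 3 of 4 genes listed as tracheal markers (verm -0.49, serp -0.43 and Gasp -0.27). The tracheal marker not called, btl, lay near the floor and changed by -0.082. Whether verm, serp and Gasp came from tracheal cells here was not tested. Other probe sets of toy changed by -0.23 and 0.12. The calls of Optix and so were kept in every leave-one-out fit. Those of toy, verm, serp and Gasp were each lost without GFP 1, GFP 2 or Delta with COX7a RNAi 2, and in some cases others, with adjusted p up to 0.205. Their part in the level of upd1 was not tested. Against COX7a RNAi alone the difference was 0.40 ± 0.10 and missed the threshold (adjusted p = 0.148), and no member was called there, against 0.896% of all genes. Without COX7a RNAi replicate 1 it was 0.58 (adjusted p = 0.0166).

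The Delta effect on upd1 was also estimated over both COX7a states, a contrast added after these values were seen. Averaged over both states, upd1 rose by 0.44 ± 0.072 (95% interval 0.27 to 0.60, limma adjusted p = 0.0153), and all 4 arrays with UAS-Delta were above all 4 without it. It was the 1 member called, where 3.24% of all genes were called and 1.7% as higher. A two-sided exact permutation test over the 8 arrays gave p = 0.0286, before any adjustment for the 8 such tests run (4 members and 2 contrasts). It is the smallest value that 70 arrangements, made without regard to COX7a state, can give. That value follows from the separation of the arrays, which was seen beforehand, so it adds no support of its own. The limma call was lost without GFP replicate 1 (adjusted p = 0.0676), GFP replicate 2 (0.0568), Delta replicate 1 (0.0690) or Delta with COX7a RNAi replicate 2 (0.0534).

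COX7a knockdown did not detectably shift upd1 in either background. COX7a RNAi differed from GFP by 0.040 ± 0.10 (95% interval -0.19 to 0.27, adjusted p = 0.907), and its 2 arrays lay on either side of the GFP arrays. Delta with COX7a RNAi differed from Delta by -0.028 ± 0.10 (95% interval -0.26 to 0.21, adjusted p = 0.932). The interaction, which asks whether the Delta effect differed between the COX7a states, was -0.068 ± 0.14 (95% interval -0.40 to 0.26, adjusted p = 0.931). A change of upd1 within these intervals was not detectable with 2 arrays per genotype. No member was called in any of the 3 comparisons, against 4.53%, 3.75% and 0.575% of all genes.

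From lowest to highest mean, the order of upd1 was GFP, COX7a RNAi, Delta with COX7a RNAi, Delta and Notch intra2. GFP and COX7a RNAi overlapped, and so did the 2 genotypes with UAS-Delta. The step from COX7a RNAi to Delta with COX7a RNAi (0.40) and the step from Delta to Notch intra2 (0.30 ± 0.10, adjusted p = 0.108) showed no overlap of arrays and missed the threshold. No member was called between Notch intra2 and Delta, against 9.55% of all genes. Without COX7a RNAi replicate 1 or 2 the adjusted p of that last step was 0.0121 and 0.0118.

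**Figure D2:**
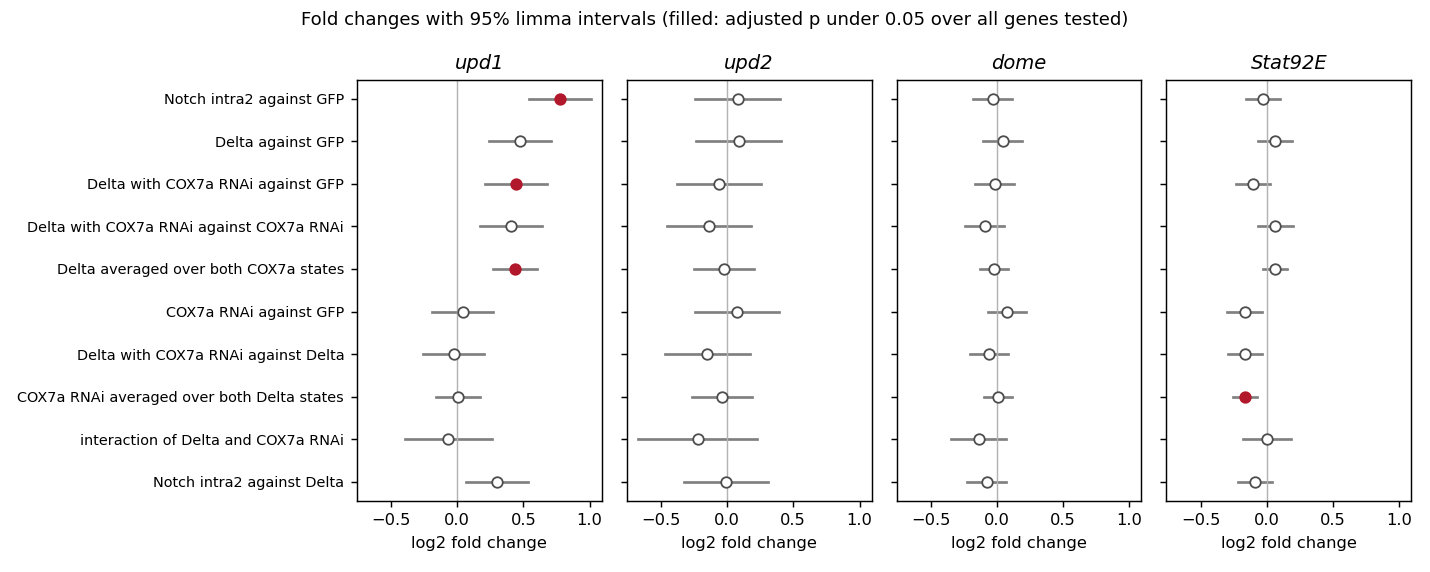
Log2 change of the 4 members (panels, horizontal axes) with its 95% interval in 10 comparisons (rows); the vertical line marks no change and filled points were called. upd1 in Notch intra2 against GFP lies farthest from it, at 0.77, with an interval from 0.54 to 1.01.

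Notch intra2 discs also differed in cell-type markers. Of 5 antennal markers tested 3 were lower than in GFP (ss, Dll by a log2 change of -2.46 and ct by -0.66). Other probe sets changed by -0.94 and -2.94 for Dll and by -1.01 and -0.076 for ct, the last under the floor on every array. ss was 7.91 and 8.02 in GFP and under the floor in Notch intra2, so the size of its change is known only as a limit. The call of ct was lost without GFP 1 or 2 or Notch intra2 1 or 2, with adjusted p up to 0.131. The summed antennal level on the log2 scale was 11.27 to 11.52 in Notch intra2 and 11.71 to 11.78 in GFP. Such sums add unlogged signals, so the brightest genes of a list weigh most. The summed eye field level was 14.60 to 14.64 and 14.61 to 14.63. Of 6 eye field markers toy (0.40) and ey (0.37) rose and Optix (-0.75) fell, and the call of ey was lost without GFP replicate 1 or Notch intra2 replicate 2 (adjusted p up to 0.0543). Of 6 photoreceptor and furrow markers 2 were lower, svp by a log2 change of -2.08 and sens by -1.60, and their summed level was 11.27 to 11.28 against 11.46 to 11.47 in GFP. The call of sens was lost without GFP 1 or 2 or Notch intra2 1 or 2 (up to 0.141). Among 5 muscle markers (Act87E and Mp20), 4 tracheal markers (Gasp and serp) and 4 glial markers (repo and moody), 2 each were called lower. Changes over these 3 lists ran from -1.82 to -0.17, from -1.37 to 0.030 and from -2.14 to 0.068. Of the tracheal list btl lay near the floor, and whether the others came from tracheal cells was not tested. The summed glial level was 12.86 to 12.94 in Notch intra2 and 12.93 to 12.97 in GFP. Gli weighed most in it, at 12.67 and 12.61 in Notch intra2 and 12.57 and 12.57 in GFP. The sum therefore says little about repo and moody. In this comparison 13.1% of all genes were called. None of 5 blood cell markers tested was called. The summed level of all 8 listed blood cell markers was 8.28 to 8.92 in Notch intra2 and 7.93 to 8.01 in GFP. In Notch intra2 the higher value was in replicate 1. With each array centred on its median 3 of the 5 were called higher, Hml (0.92, adjusted p = 0.0484), PPO1 (1.08, 0.0498) and PPO2 (0.65, 0.0384). PPO1 was also called with the replicate block (0.0437) and PPO2 with a second quantile normalization (0.0283). The blood markers srp and eater were under the floor on every array. The part of these shifts in the level of upd1 was not tested.

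upd2, a second ligand of the family, known from the fat body as a signal of the fed state, was barely above the floor. Its log2 level was 4.78 and 4.69 in GFP, 4.83 and 4.79 in COX7a RNAi and 4.80 and 4.84 in Delta. It was 4.46 and 4.89 in Delta with COX7a RNAi and 4.92 and 4.71 in Notch intra2. The array at 4.46 was the only 1 of 10 under the floor, and the widest gap between genotype means, 0.15, was about the residual SD of the gene (0.15). Against GFP, Notch intra2 differed by 0.080 ± 0.14 (95% interval -0.24 to 0.40, adjusted p = 0.761).

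The 3 upd genes are neighbours in the gene table used here for names (Release 6 plus ISO1 MT), in the order upd2, upd3, upd1, with 3 genes between upd2 and upd3 and 1 between upd3 and upd1. The only other gene of that stretch with a tested probe set was CG15059. It differed from GFP by 0.13 ± 0.10 in Notch intra2 (adjusted p = 0.477) and by -0.034 ± 0.10 in Delta (adjusted p = 0.928), at a mean level of 4.64. Of the 3 genes tested along this stretch, upd1 was the 1 called in Notch intra2. Both upd2 (mean level 4.77) and CG15059 lay near the floor, where a change could be missed. Whether the rise was limited to upd1 within this stretch could therefore not be judged.

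dome, the receptor, was steady across the 5 genotypes. Its log2 level was 11.50 and 11.56 in GFP, 11.67 and 11.54 in COX7a RNAi and 11.60 and 11.55 in Delta. It was 11.58 and 11.45 in Delta with COX7a RNAi and 11.45 and 11.54 in Notch intra2. Every genotype overlapped GFP, and the genotype means spanned 0.11, a span exceeded by 87.9% of the genes tested. In Notch intra2 the difference from GFP was -0.033 ± 0.064 (95% interval -0.18 to 0.11, adjusted p = 0.788). The interval excludes a change as large as that of upd1.

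Stat92E, the transcription factor, stood slightly lower on the arrays with COX7a RNAi. Its log2 level was 11.65 and 11.69 in GFP and 11.52 and 11.48 in COX7a RNAi. It was 11.71 and 11.75 in Delta and 11.65 and 11.48 in Delta with COX7a RNAi, and 11.65 and 11.63 in Notch intra2. Both COX7a RNAi arrays were below both GFP arrays, and both arrays of Delta with COX7a RNAi were below both Delta arrays.

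Neither of these 2 differences passed the threshold alone: COX7a RNAi against GFP was -0.17 ± 0.057 (adjusted p = 0.170) and Delta with COX7a RNAi against Delta was -0.17 ± 0.057 (adjusted p = 0.175). The interaction was 0.0022 ± 0.080 (95% interval -0.18 to 0.19). Without Delta with COX7a RNAi replicate 1 or 2 the first had an adjusted p of 0.0435 and 0.0431, and without replicate 1 the second was -0.25 (adjusted p = 0.0322). Without that replicate 1, Stat92E in Delta with COX7a RNAi against GFP was -0.19 (adjusted p = 0.0452), where with all arrays it was -0.10 (adjusted p = 0.339).

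Averaged over both Delta states, a contrast likewise added after the values were seen, Stat92E fell by 0.17 on the log2 scale with COX7a RNAi (-0.17 ± 0.040, 95% interval -0.26 to -0.075, limma adjusted p = 0.0408). It was the 1 member called, where 8.03% of all genes were called and 3.34% as lower. The exact permutation test over the same 8 arrays gave p = 0.0571, unadjusted, so the difference did not pass 0.05 there. The 2 groups of 4 arrays overlapped, at 11.65. The limma call was kept in 2 of 10 leave-one-out fits, those without Delta with COX7a RNAi replicate 1 or 2. Without GFP 1 or 2, COX7a RNAi 1 or 2, Delta 1 or 2, or Notch intra2 1 or 2 the adjusted p was 0.0657 to 0.149. It was also lost without an intensity trend in the variance (0.0830), with only the groups compared in the fit (0.0737) and with each array centred on its median (0.0738).

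Of 4 genes listed as tracheal markers, 3 moved the same way in that contrast (verm -0.42, serp -0.40 and Gasp -0.19). The marker not called, btl, lay near the floor (4.47 to 5.01 over all arrays) and changed by -0.034. The summed level of the 4 was 13.60 to 13.68 in COX7a RNAi and 13.59 to 13.73 in Delta with COX7a RNAi. It was 13.97 to 14.02 in GFP and 13.79 to 13.90 in Delta. Calls of verm and Gasp were each lost in 4 of the 10 leave-one-out fits, and their part in the level of Stat92E was not tested. The lost calls were without GFP 1 or Delta 1 for both, GFP 2 and Delta with COX7a RNAi 2 for verm, and COX7a RNAi 2 and Delta 2 for Gasp.

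Between genotypes, the means of upd1 spanned 0.77, those of Stat92E 0.23, those of upd2 0.15 and those of dome 0.11. A span larger than that of upd1 was seen in 9.12% of the genes tested, and a span larger than that of Stat92E in 48.3%.

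The genes whose levels followed upd1 most closely over the 10 arrays were dpn (Pearson r = 0.945), ZnT41F (0.923) and eyg (0.923), out of 533 genes whose genotype means spanned at least 1 on the log2 scale. These correlations are descriptions over arrays that share their genotypes. dpn, a transcription factor known as a Notch target in neural stem cells, rose by 2.03 ± 0.13 in Notch intra2 over GFP, ZnT41F, named as a zinc transporter, by 1.09 ± 0.099, and eyg by 2.69 ± 0.082. In Delta the change over GFP was 0.84 ± 0.13 for dpn (adjusted p = 0.0119) and 0.95 ± 0.082 for eyg (6.87e-04), both called, and 0.43 ± 0.099 for ZnT41F (0.0765), not called. The log2 level of eyg was 9.02 and 8.87 in GFP, 9.89 and 9.90 in Delta and 11.55 and 11.72 in Notch intra2, so its steps were wider than those of upd1. The 3 genes were picked among those spanning at least 1, and upd1 spanned 0.77, so a wider span was fixed by that choice.

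**Figure D3:**
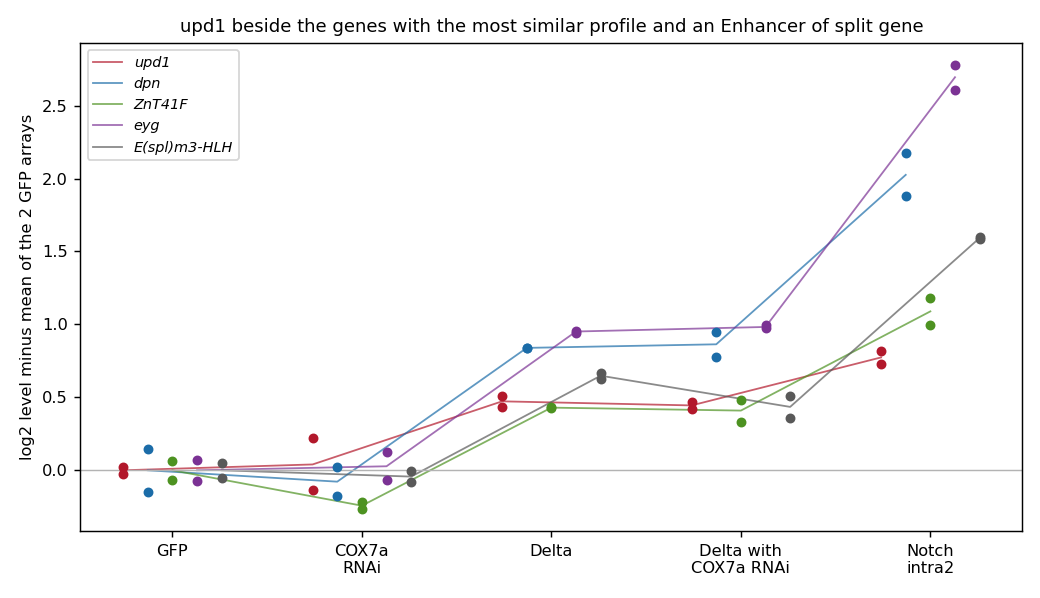
Log2 level relative to the GFP mean (vertical axis) of upd1, of the 3 genes most like it (dpn, ZnT41F and eyg) and of the Notch target E(spl)m3-HLH, by genotype; points are single arrays and lines join genotype means. All 5 stand lowest in GFP and COX7a RNAi and highest in Notch intra2, and upd1 has the smallest rise, 0.77 against 1.09 to 2.69. The 3 genes most like upd1 were picked by correlation with it among genes whose means spanned at least 1. Their shared order and wider rise follow from that choice.

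The 3-step pattern of upd1, with all arrays of each step above all arrays of the step before, was then counted over all genes, a description chosen after its values were seen. It held in rising form for 100 of 8702 genes (1.15%), among them eyg and the Enhancer of split genes E(spl)mbeta-HLH, E(spl)m5-HLH, E(spl)m3-HLH and E(spl)m2-BFM, direct Notch targets. The falling form held for 51 genes (0.586%), among them Optix, a retinal determination factor.

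Among 8 Enhancer of split genes tested, 6 were higher in Notch intra2 than in GFP, with a median change of 1.30, and 2 were higher in Delta, with a median of 0.66. Over all genes 6.03% were called higher in Notch intra2, and 2.38% were called in either direction in Delta. In Notch intra2, leaving out GFP 1 or either Notch intra2 array ended the call of E(spl)m4-BFM (adjusted p up to 0.0710), and leaving out any GFP or Notch intra2 array ended that of E(spl)m7-HLH (up to 0.0991). The call of E(spl)m2-BFM in Delta was lost without GFP 1 or 2, Delta 1 or 2 or Notch intra2 1 or 2, with adjusted p up to 0.163. None was called in COX7a RNAi.

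The gene for Stat92E was most closely followed over the 10 arrays by unc-5, a netrin receptor (r = 0.837), pst (0.794) and Cipc (0.792). The level of unc-5 was 11.06 and 11.16 in GFP against 10.38 and 10.37 in COX7a RNAi, a change of -0.73 ± 0.068 (adjusted p = 9.08e-04).

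Counts of called genes among other regulators of the pathway were near the share over all genes. Of 13 tested, none was called in COX7a RNAi or in Delta against GFP, where 4.53% and 2.38% of all genes were. The 13 include the phosphatase Ptp61F, the receptor-like antagonist et, the SUMO ligase Su(var)2-10, the suppressors Socs16D and Socs44A and the endosomal sorting genes Hrs, Stam and TSG101. In Notch intra2 1 of 13 was called, against 13.1% of all genes. The median change over the list was 0.020 there, against 0.028 over all genes. With a second quantile normalization Ptp61F was called as well (-0.17, adjusted p = 0.0450). Another probe set of Ptp61F, above the floor on all 10 arrays, changed by only -0.032 on the deposited values. The regulator called in the main fit was ken, a repressor known to block a subset of STAT target genes. Its log2 level was 10.80 and 10.85 in GFP, 11.18 and 11.10 in Notch intra2, and between 10.71 and 10.93 on the 6 arrays of the other genotypes. It rose by 0.32 ± 0.052 (adjusted p = 0.00541), and both Notch intra2 arrays were above the other 8. The call was lost without GFP replicate 1 or Notch intra2 replicate 1, with adjusted p up to 0.0531. et, which lies next to dome with 0 genes between them, was at 4.58 to 4.83 and so near the floor throughout.

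Cdk4, a cyclin-dependent kinase reported to bind Stat92E together with Cyclin D, was the 1 regulator of 13 called in Delta with COX7a RNAi. Against GFP 7.56% of all genes were called there. Its log2 level was 10.08 and 10.12 in GFP, 10.16 and 10.13 in COX7a RNAi and 10.22 and 10.17 in Delta. It was 10.45 and 10.51 in Delta with COX7a RNAi and 10.13 and 10.16 in Notch intra2. The 2 arrays that combined Delta with COX7a RNAi were above the other 8.

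Cdk4 rose by 0.39 ± 0.044 over GFP (adjusted p = 0.00193), a call kept in all 10 leave-one-out fits. It rose by 0.29 ± 0.044 over Delta (adjusted p = 0.0108), lost without Delta replicate 1 or 2 (up to 0.0881). It rose by 0.34 ± 0.044 over COX7a RNAi (adjusted p = 0.0116), lost without COX7a RNAi replicate 1 or Delta with COX7a RNAi replicate 2 (up to 0.0591). The interaction of Delta and COX7a RNAi was 0.24 ± 0.062 and was not called (adjusted p = 0.20), so a difference of the Delta effect between the COX7a states was not shown. CycD, its cyclin partner, was not called in any of these comparisons.

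Among genes reported to respond to JAK/STAT signalling, zfh1 and pnr were lower in Notch intra2 than in GFP. Of 14 listed, 6 were tested, 2 (TotC and sens-2) were below the filter and the other 6 were not analysed here. Against GFP none of the 6 was called higher in Notch intra2, where 6.03% of all genes were, so that a count of 0 of 6 is near the share over all genes. Of the 6, 2 were called lower, where 13.1% of all genes were called in either direction and those called lower are only a part of that share. The median change of the 6 was -0.50 against 0.028 over all genes tested, and vir-1, given below, was also lower without being called. The list gives no direction of response, so its counts and median do not measure the activity of the pathway. zfh1, a transcription factor known as a STAT target in the testis and also active in muscle and glia, had a log2 level of 6.79 and 7.18 in GFP and 5.35 and 4.98 in Notch intra2. It fell by 1.81 on the log2 scale (-1.81 ± 0.20, adjusted p = 7.37e-04), and both Notch intra2 arrays were below the other 8.

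pnr, a GATA factor of the dorsal disc margin, was 7.91 and 7.99 in GFP and 6.998 and 6.93 in Notch intra2, a change of -0.99 ± 0.16 (adjusted p = 0.00439). The calls of zfh1 and pnr were kept in all 10 leave-one-out fits. In the same arrays 2 of 5 muscle markers (Act87E -1.82 and Mp20 -1.60) and 2 of 4 glial markers (repo -2.14 and moody -1.38) were called lower. The other markers of these lists were not called, and the glial list ran up to 0.068. The part of these markers in the level of zfh1 was not tested.

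In the other comparisons that do not involve Notch intra2 none of the 6 responsive genes was called. The following 3 were picked after their values were seen. vir-1, an infection-induced gene that needs the pathway, was 8.40 and 8.08 in GFP and 7.32 and 7.23 in Notch intra2 (-0.96 ± 0.27, adjusted p = 0.0550), and it was 9.40 and 8.42 in Delta with COX7a RNAi. chinmo, known as a STAT target in the eye disc and testis, lay lower on the 4 arrays with COX7a RNAi (11.75 to 12.06) than on the 4 GFP and Delta arrays (12.10 to 12.30). That averaged difference was -0.26 ± 0.072 and missed the threshold (adjusted p = 0.0664). zfh1 showed the same separation, at 6.22 to 6.76 against 6.79 to 7.18 (-0.50 ± 0.14, adjusted p = 0.0802). Against the genotypes with COX7a RNAi, chinmo was higher in Notch intra2 by 0.43 (COX7a RNAi, adjusted p = 0.0193) and by 0.36 (Delta with COX7a RNAi, 0.0471). Other probe sets of chinmo changed by 0.39 and 0.064 against COX7a RNAi and by 0.33 and 0.26 against Delta with COX7a RNAi. vir-1 was lower in Notch intra2 by log2 changes of -0.98 (0.0384) and -1.64 (0.00532). Of all genes 20.3% and 15.8% were called in these 2 comparisons, which were not refitted with arrays left out.

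**Figure D4:**
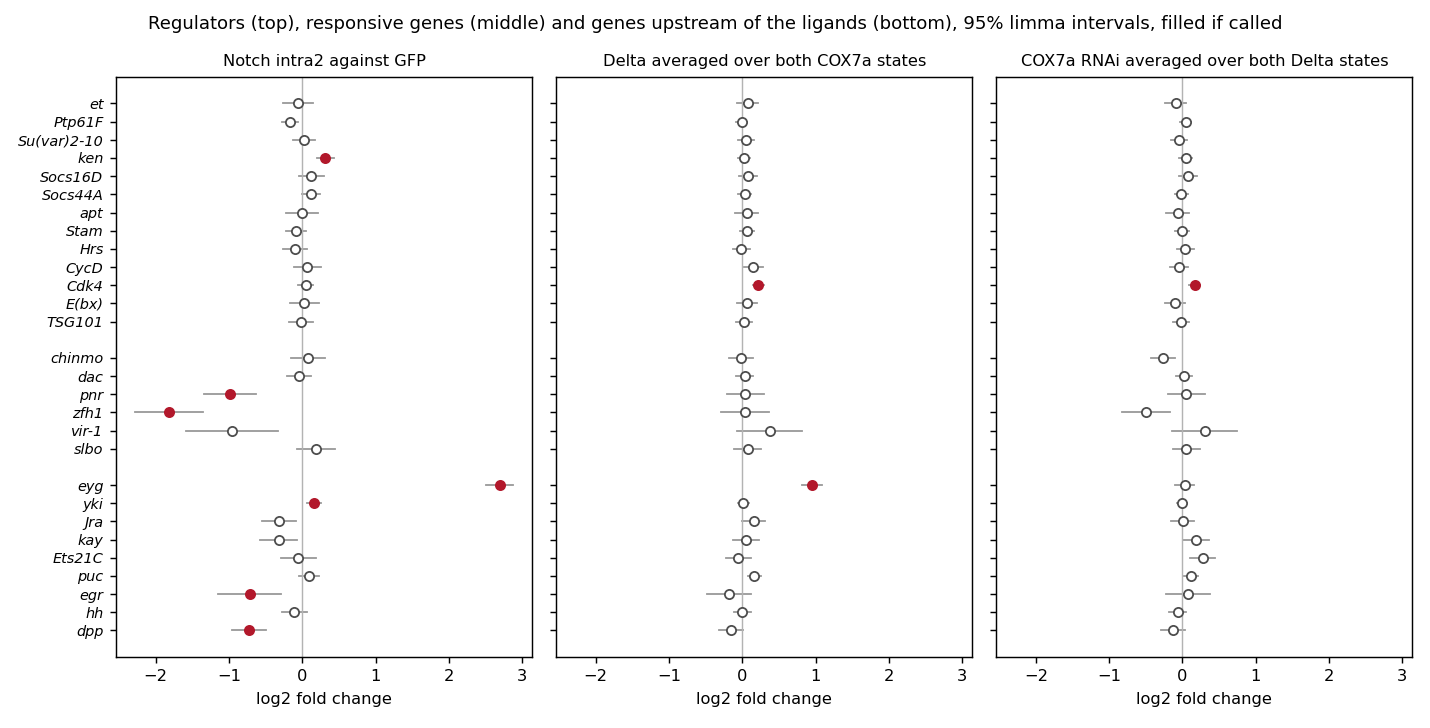
Log2 change (horizontal axes) with its 95% interval for each tested regulator (top rows), responsive gene (middle) and gene upstream of the ligands (bottom), in Notch intra2 against GFP and in both averaged contrasts; filled points were called. In Notch intra2 against GFP the responsive genes run from -1.81 (zfh1) to 0.19 (slbo), and eyg stands apart at 2.69.

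Of 9 tested genes reported to act upstream of the upd ligands, 2 were higher and 2 lower in Notch intra2 than in GFP (median -0.11). Over all genes 13.1% were called there in either direction. eyg rose as given above. dpp, a morphogen of the disc margin, fell by 0.73 (-0.73 ± 0.10, adjusted p = 0.00242), from 11.07 and 11.20 to 10.42 and 10.40. egr, the ligand that activates JNK signalling, changed by -0.72 ± 0.18 (adjusted p = 0.0384), a call lost in 5 of 10 fits: without GFP 1 or 2, Delta 1 or 2, or Notch intra2 2. yki, the growth factor of the Hippo pathway, changed by 0.16 ± 0.044 (adjusted p = 0.0485), and its call was lost without any single array other than those of COX7a RNAi. It was also lost with the replicate block (0.0517), with no filter (0.0744) and with a second quantile normalization (0.0656).

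In Delta 1 of the 9 was called, eyg, and in COX7a RNAi none, against 2.38% and 4.53% of all genes. puc, a phosphatase induced by JNK, was 9.45 and 9.43 in Delta with COX7a RNAi against 9.14 and 9.17 in GFP. It rose by 0.28 ± 0.058 (adjusted p = 0.0242), a call lost without GFP 1 or 2 or Delta with COX7a RNAi 1 or 2. eyg was as high there as in Delta, 0.98 ± 0.082 over GFP, and differed from Delta by 0.031 ± 0.082 (adjusted p = 0.897).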

How the data were processed

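The deposited values are log2 signals per probe set, with no scanner files used here. Per the submitters' processing notes the tools were Transcriptome Analysis Console 3.0.0.466, Affymetrix Expression Console and the RMA method, with no roles given. Of 18952 probe sets 183 were controls, 13647 carried 1 gene symbol, 402 several and 4720 none, and the genome build is not given in the sources used here. For a gene with several probe sets, the 1 of highest mean over all arrays was taken. Genes needed 2 arrays above the 40th percentile of all values, a log2 floor of 4.66, which kept 8702 of 11982. limma 3.58.1 in R 4.3.3 fitted 1 mean per genotype over all 10 arrays, with an intensity trend (residual df 5), and p-values were adjusted over all genes tested in each comparison. There were 8 comparisons, 3 more for the order of genotypes, and 2 averaged contrasts added after the data were seen, which also had an exact permutation test. Comparisons with GFP share its arrays. Named genes were the members, the called genes with the largest change of each list (up to 3) and the 3 genes most like upd1 and Stat92E. The members and lists were chosen with earlier results of these data known. Arrays give no read depth, and their number limits the precision. In simulated data for Notch intra2 against GFP the fit called 15 of 50 genes changed 1.25-fold, 41 of 50 changed 1.5-fold and 45 of 50 changed 2-fold. There were 8 false calls among the unchanged genes of that fit, which covered 8702 genes. The simulated noise was independent between genes and arrays, so these shares need not hold for the real arrays.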

Additional observations from a re-analysis of the deposited data

How the results depend on the processing

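The rise of upd1 in Notch intra2 over GFP was called under all 19 alternatives. The number of members called moved elsewhere. In Delta against GFP it was 1 in place of 0 with a floor at the 60th percentile, with robust eBayes and with only the groups compared. In Delta with COX7a RNAi against GFP it was 0 in place of 1 without an intensity trend. In Notch intra2 against Delta it was 1 in place of 0 with only the groups compared. For COX7a RNAi averaged it was 0 in place of 1 without a trend, with only the groups compared and with median centring. Leaving out 1 array gave 0 to 1 members in each comparison except Notch intra2 against GFP (1 throughout) and the interaction (0 throughout). The cause of these changes was not tested.

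Among the values of single members under alternatives, 677 kept their direction and side of the threshold, 24 lost and 13 gained a call, and 36 changed sign, none of these 36 being called. With median centring, dome and Stat92E in Notch intra2 against GFP were 0.024 and 0.029 and upd2 in Notch intra2 against Delta was 0.062. With a second quantile normalization Stat92E was 0.0094 in Notch intra2 against GFP and -0.0028 in the interaction. The other sign changes came from leaving out 1 array, with these ranges. upd1 ran from -0.14 to 0.22 in COX7a RNAi against GFP, from -0.063 to 0.0075 in Delta with COX7a RNAi against Delta, from -0.25 to 0.11 in the interaction and from -0.083 to 0.095 for COX7a RNAi averaged. upd2 ran from -0.020 to 0.18 in Notch intra2 against GFP, from -0.11 to 0.093 in Notch intra2 against Delta, from -0.13 to 0.083 for Delta averaged and from -0.14 to 0.070 for COX7a RNAi averaged. For Delta with COX7a RNAi, upd2 ran from -0.36 to 0.066 against Delta, from -0.35 to 0.079 against COX7a RNAi and from -0.28 to 0.15 against GFP. dome ran from -0.079 to 0.012 in Notch intra2 against GFP, from -0.13 to 0.0072 in Delta with COX7a RNAi against Delta, from -0.083 to 0.052 in Delta with COX7a RNAi against GFP, from -0.057 to 0.011 for Delta averaged and from -0.026 to 0.041 for COX7a RNAi averaged. Stat92E ran from -0.024 to 0.15 in Delta with COX7a RNAi against COX7a RNAi and from -0.086 to 0.091 in the interaction.

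Of 10 correlations between the deviations of same-numbered arrays, which ran from -0.22 to 0.38, 2 exceeded 0.1: COX7a RNAi with Delta with COX7a RNAi (0.38) and GFP with Delta (0.12). The arrays of the first pair deviated together, but the numbers did not pair the arrays over all 5 genotypes and were not used as a pairing. Not every array correlated best with arrays of its own number. With the replicate block, 1 member was called in Notch intra2 against GFP, as without it, the number of members called changed in no comparison, and all genes called there moved from 1144 to 1140.

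Leaving out 1 array moved all genes called from 394 to between 127 and 443 in COX7a RNAi against GFP, from 207 to between 74 and 245 in Delta against GFP and from 1144 to between 545 and 1250 in Notch intra2 against GFP. It moved them from 326 to between 104 and 371 in Delta with COX7a RNAi against Delta, from 78 to between 41 and 105 against COX7a RNAi and from 658 to between 206 and 772 against GFP. They moved from 831 to between 311 and 979 in Notch intra2 against Delta and from 50 to between 16 and 42 in the interaction. With 2 arrays per genotype, small changes stay undetected, and upd2 lay too near the floor to judge.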
